A study of Drosophila melanogaster with 21 samples.

Results

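The response of fly heads to fasting was compared between control flies and flies lacking Crtc, gene by gene, as the interaction of genotype with feeding. The genes compared were the 8474, of 17559 identifiers, whose base mean reached 10 in each of the authors' deposited fasting tables, where the base mean is the normalized count averaged over the libraries of a comparison. The other 9085 identifiers were left out. For each gene the log2 fold of fasted over fed heads in control flies was subtracted from that in knockout flies, so a positive difference is a response that was more upward, or less downward, in the knockout. A difference was called at an adjusted p under 0.05, from a two-sided normal test with Benjamini-Hochberg adjustment over all 8474 genes. It is given as the log2 difference ± its standard error, the root of the sum of both deposited squared standard errors.

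Heads of adult Drosophila melanogaster aged 3 to 5 days gave polyadenylated RNA after feeding on standard medium or after 16 hours of fasting. Control flies carried the genotype w1118, named for a mutation of the eye colour gene white, and the other flies are labelled as Crtc knockouts, with no allele, background or sex given. Each genotype had 3 fed and 2 fasted libraries, 10 in all of the 21 samples of the series. Nothing in the labels tells whether the replicates were separate groups of flies, and the p-values then cover only the variation among these libraries, which may be technical.

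Crtc encodes the fly's CREB-regulated transcription coactivator, which enters the nucleus and joins the transcription factor CREB when energy is short. Insulin-like peptides from the brain and the fat body, the fly's liver and adipose tissue, signal the fed state, and adipokinetic hormone signals the fasted state and frees stored fat and sugar. A head holds brain, eyes, muscle and a sheet of fat body, so a value from whole heads mixes these tissues. Fewer cells of a type and less RNA per cell cannot be told apart in such samples.

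Crtc itself was nearly absent from the knockout libraries, with a base mean of 0.36 against 339.7 over the control libraries (values of the authors' deposited fasting tables), and was therefore not among the genes compared. The stocks differed in the transcript level of white as well, since the authors' deposited fasting tables give w a base mean of 80.1 in control and 4.94 in knockout libraries. These counts do not show which allele of white either stock carried. The base means of the authors' 4 deposited tables sum to between 3465010 and 4405826 normalized counts per library, and the depth of single libraries is unknown. Head identity was checked by the phototransduction list, of which 23 of 24 genes were measured, with summed group levels of 297708 to 444598 normalized counts per library, and by the neuronal markers, of which 18 of 20 listed were measured. The rhodopsin chaperone gene ninaA is listed at 0 in the authors' deposited fasting tables. In the labels, the third fed library of each genotype belongs to a further sample set without fasted libraries. Whether they moved any value below was not tested, since no table gives a value per library.

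The tables hold no value per library, so the level of a gene is given here for each of the 4 groups, without an SD. These group levels, in normalized counts per library, were recovered from the base means and the folds with DESeq2's prior taken out, and knockout levels were put on the scale of the control libraries. Over 4804 genes whose base mean reached 100, these levels were set beside the base means in the authors' deposited tables of knockout against control. The median deviation in each feeding state was subtracted first, so a common offset does not show. After that, 98% of fed and of fasted levels lay within 0.0079 of those base means on the log2 scale. Among the 68 genes called below, 62 lay within 0.05 on that scale, and the level of Lsd-1 deviated most, by 0.20.

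The response was higher in the knockout for 59 genes (0.696% of 8474) and lower for 9 (0.106%), together 68 genes (0.802%). The differences of the 59 ran from 0.92 to 4.06 with a median of 1.42, and those of the 9 ran from -2.60 to -1.27 with a median of -1.42. Over all genes compared the median difference was -0.01, with 4087 genes above 0 and 4387 below. These shares, counts and this median are the background of every gene list below. At an unadjusted p under 0.05 stood 349 genes, fewer than the share of 0.05 that the normal reference gives where no gene differs. The differences over their standard errors had a robust SD of 0.66, narrower than that reference, and the cause was not tested. The calls rest on the normal reference: when a t distribution on 6 degrees of freedom replaced it, 0 genes were called in either direction, 190 stood at an unadjusted p under 0.05, and the smallest adjusted p was 0.108. All statements below that a response was higher or lower carry this limit.

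The authors' deposited tables give the background of these calls. In their deposited table of control fasting 198 of the 8474 genes rose (2.34%) and 151 fell (1.78%), 349 in all (4.12%). Under knockout fasting, the authors' deposited table has 265 that rose (3.13%) and 46 that fell (0.543%), 311 in all (3.67%). In fasted heads 306 were higher in knockout than in control (3.61%) and 154 lower (1.82%), 460 in all (5.43%), in the authors' deposited table. In fed heads, with 8472 of these genes adjusted, 179 were higher (2.11%) and 203 lower (2.4%), 382 in all (4.51%), in the authors' deposited table.

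Counted by these calls, the differences fell mostly on genes that fell in control or rose in knockout heads. Of the 151 genes that the authors' deposited table has as fallen in control heads, 25 were called with a higher and 0 with a lower response in knockout, and their median log2 fold was -0.89 in control and -0.28 in knockout heads. Of the 198 that rose in control heads, 7 had a higher and 6 a lower response, with medians of 0.90 and 0.93 in the authors' deposited tables. Among the 265 that rose in knockout heads, 33 had a higher and 0 a lower response, and the authors' deposited tables give them medians of 1.03 in knockout and 0.53 in control heads. Of the 46 that fell in knockout heads in the authors' deposited table, 1 had a higher and 3 had a lower response. Each of these sets was chosen by its fold in 1 table, which makes the median in that table large by choice. That fold also enters the difference, so the choice itself pushes the counts of a set towards 1 direction. The counts are a description and no support for a direction.

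Among the 59 genes with a higher response, 22 were called down in control heads alone and 24 were called up in knockout heads alone in the authors' deposited tables. Another 7 rose in both genotypes, BomS1 and BomBc2 were called in opposite directions (down in control, up in knockout), fit fell in both, and 3 were called in neither. Among the 9 with a lower response, 6 were called up in control heads alone and 3 were called down in knockout heads alone, again in the authors' deposited tables.

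**Figure D1:**
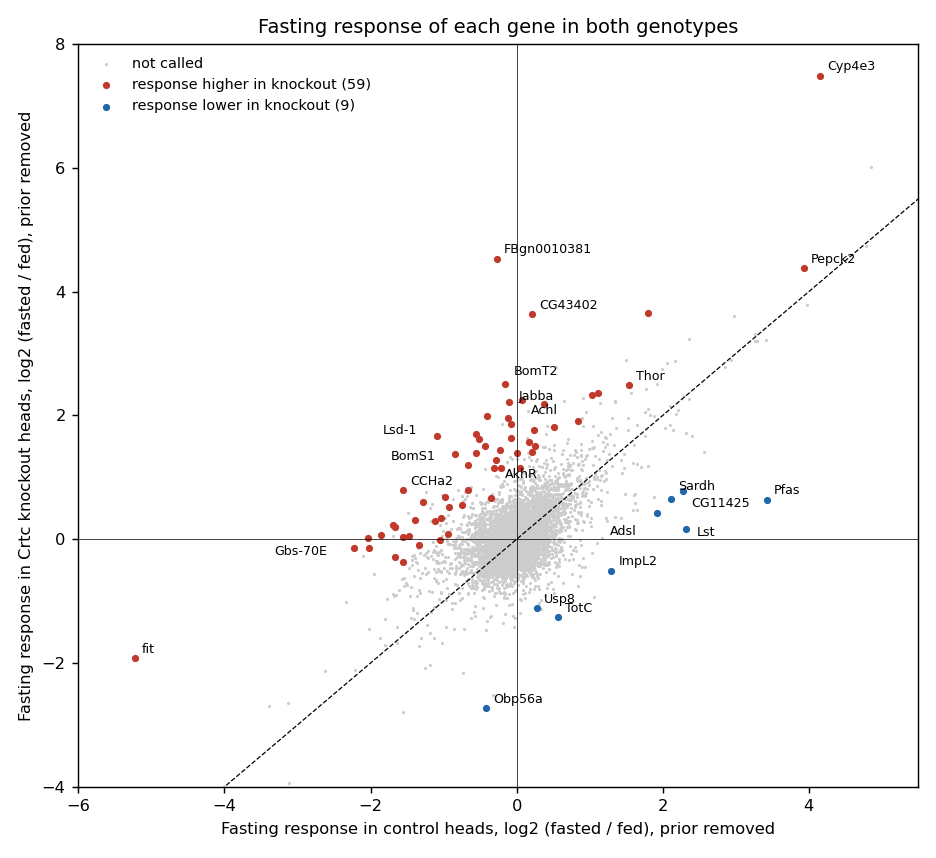
Fasting response of 8474 genes in control heads (horizontal axis) and in Crtc knockout heads (vertical axis), as log2 of fasted over fed level with the prior of the authors' fit taken out. Red points are the 59 genes with a higher and blue points the 9 with a lower response in knockout, grey points are not called, and the dashed line marks equal responses. Pfas, Lst and CG11425 lie far right near the horizontal axis, and a column of red points, among them FBgn0010381 and CG43402, lies above 0 on the vertical axis near 0 on the horizontal axis.

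Of the 9 genes with a lower response, Pfas had the largest difference, followed by Lst, ImpL2, Obp56a, Sardh, Adsl, TotC, Usp8 and CG11425. They are given here by what they encode, since each of the lists they belong to had at most 2 of them. Pfas encodes phosphoribosylformylglycinamidine synthase, an enzyme of de novo purine synthesis (chromosome 2L, 6041181 to 6046050, minus strand, in BDGP6.54). Its level went from 356 in fed to 3822 in fasted control heads, and from 316 to 492 in knockout heads. The rise was 10.7-fold in control and 1.56-fold, not called, in knockout heads, a difference of -2.60 ± 0.26 (adjusted p = 3.26e-20). Fed levels were close in both genotypes, and it was the fasted level that separated them. Adsl, which encodes adenylosuccinate lyase of the same pathway (chromosome 3R, 17018780 to 17021120), went from 158 to 597 in control and from 120.1 to 160.2 in knockout heads, a difference of -1.38 ± 0.30 (adjusted p = 0.00118). The authors' deposited tables call both genes up in control heads and neither in knockout heads.

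No other gene of the purine list was called. Of 11 measured enzymes of de novo purine synthesis 0 were called higher and 2 lower, against 0.696% and 0.106% of all genes compared, and the median difference was -0.27. By the authors' deposited tables, 7 of the 11 rose in control and 5 in knockout heads. Gart, whose product carries several steps of the pathway, went from 323 to 3085 in control and from 287 to 2871 in knockout heads, and CG11089 went from 424 to 4514 and from 382 to 3549. Both were chosen after their values were seen, to set beside Pfas, and their differences of -0.31 ± 0.31 and -0.27 ± 0.25 were not called. Summed over the 11 genes, the level went from 5195 to 21556 in control and from 4685 to 14929.5 in knockout heads. Pyrimidine synthesis had 0 of 4 genes called, with differences between -0.11 and -0.03.

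Sardh encodes sarcosine dehydrogenase, which passes a one-carbon unit from sarcosine to folate (chromosome 2R, 17753555 to 17756422). Its level went from 106 to 460.3 in control and from 75.7 to 119 in knockout heads, a difference of -1.42 ± 0.35 (adjusted p = 0.00891). With the prior taken out the difference was -1.46 ± 0.49 and no longer called (adjusted p = 0.232). Sardh was the only called gene among 11 of the methionine cycle and sarcosine list, whose median difference was 0.06. Gnmt, whose product makes sarcosine, went from 494 to 1517 in control and from 280.3 to 420.3 in knockout heads, with a difference of -1.07 ± 0.34 that was not called (adjusted p = 0.171). The folate cycle and glycine cleavage list had 0 of 10 genes called, between -1.03 for pug and 1.08 for CG8665, and a median of 0.05. CG8665 had levels of 16.1 and 20.8 in control and 331 and 931 in knockout heads, so its stock difference was present in both feeding states. Serine synthesis had 0 of 3 genes called, and all 3 rose in both genotypes in the authors' deposited tables.

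Lst encodes limostatin, a peptide that restrains insulin release on fasting (chromosome 2R, 16574579 to 16576586), and ImpL2 encodes a secreted protein that binds insulin-like peptides (chromosome 3L, 4224006 to 4236147). Lst went from 180.0 to 896 in control and from 195 to 219 in knockout heads, a difference of -1.85 ± 0.34 (adjusted p = 2.04e-05). ImpL2 went from 381 to 936 in control and from 273 to 192 in knockout heads, a difference of -1.58 ± 0.28 (adjusted p = 1.29e-05). Both were called up by fasting in control heads only, and were lower in fasted but not in fed knockout heads in the authors' deposited tables. In the annotation 61.9% of the exon bases of ImpL2 are shared with FBgn0287590 on the same strand, which has no row in the tables, so reads of either may stand behind the ImpL2 value.

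Ilp6, an insulin-like peptide gene of the fat body, differed the other way. It went from 166 to 136 in control and from 108 to 264 in knockout heads, a difference of 1.29 ± 0.32 (adjusted p = 0.00831). The list of insulin-like peptides and secreted modulators thus had 1 gene higher, 2 lower and 4 not called of 7 measured, with a median of -0.57. Ilp1, Ilp4, Ilp7, Ilp8 and conv had base means too low to be compared. Thor encodes the translation repressor 4E-BP, a target of the transcription factor FOXO. Its level went from 826 to 2392 in control and from 496 to 2790.5 in knockout heads, a difference of 0.92 ± 0.24 (adjusted p = 0.0176). Thor rose in both genotypes and was lower in fed knockout than in fed control heads in the authors' deposited tables, and fasted levels were not called different. It was the only called gene of 22 FOXO and TOR regulators, whose median was -0.02.

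The other 4 genes with a lower response were a phosphatase, a stress peptide, a deubiquitinase and an odorant-binding protein gene. All 4 lost the call with the t reference, and 3 of them also with no filter on low values. CG11425, listed with the wunen-like lipid phosphate phosphatases, went from 54.4 to 263 in control and from 35.0 to 60.0 in knockout heads, a difference of -1.27 ± 0.35 (adjusted p = 0.0433). TotC, a Turandot stress peptide gene, went from 77.9 to 115 and from 91.1 to 38.1, a difference of -1.34 ± 0.37 (adjusted p = 0.0399). The calls of both, and of Obp56a, were lost with no filter on low values, and those of CG11425 and Obp56a also with the prior taken out. Usp8, a deubiquitinase gene, went from 566 to 686 in control and from 963 to 446 in knockout heads, a difference of -1.27 ± 0.23 (adjusted p = 2.68e-05). The odorant-binding protein gene Obp56a had levels of 16.6 and 12.4 in control and 79.2 and 11.9 in knockout heads, a difference of -1.50 ± 0.42 (adjusted p = 0.0433). Usp8 and Obp56a were higher in fed knockout than in fed control heads and fell in the knockout in the authors' deposited tables, while fasted heads were not called different.

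**Figure D2:**
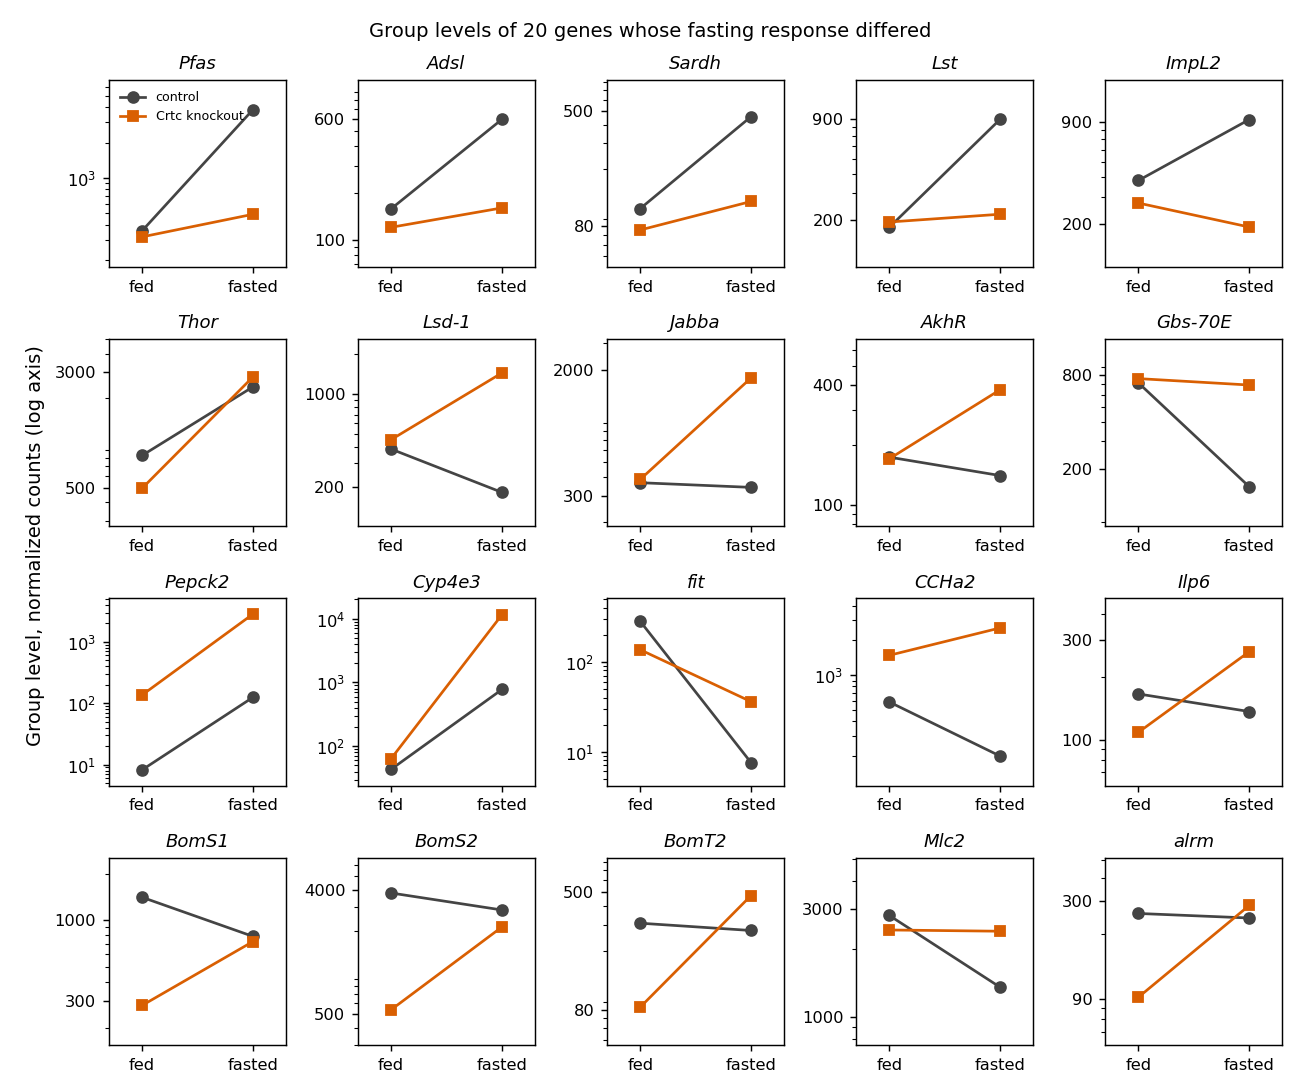
Group levels of 20 called genes in fed and fasted heads, in normalized counts per library on a log axis whose range differs between panels, with control heads as grey circles and Crtc knockout heads as orange squares. Each point is the level recovered for a group of 3 fed or 2 fasted libraries and has no error bar because no values per library are listed. Pfas, Adsl, Sardh and Lst climb steeply in control heads alone, Lsd-1, Jabba, AkhR and Gbs-70E separate in the fasted state, and the Bomanin genes separate in the fed state.

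Genes of stored fat had a higher response in the knockout at the lipid droplet and at the hormone receptor, and none of the 21 measured genes on the list of fatty acid oxidation was called. Lsd-1 encodes a perilipin, which coats lipid droplets and controls access of lipases (chromosome 3R, 23763857 to 23766662). It went from 384 to 181 in control and from 453 to 1446 in knockout heads, a difference of 1.81 ± 0.39 (adjusted p = 0.00107), or 2.76 ± 0.62 with the prior taken out. Lsd-1 was called down by fasting in control heads only in the authors' deposited tables, where its log2 folds were -0.85 ± 0.24 and 0.96 ± 0.31. Jabba, another protein of lipid droplets, stayed near 365 and 339.8 in control heads and went from 383 to 1781 in knockout heads, a difference of 1.91 ± 0.32 (adjusted p = 2.39e-06). AkhR encodes the receptor of adipokinetic hormone. It had levels of 174 and 140.3 in control heads and went from 171 to 379.9 in knockout heads, a difference of 1.27 ± 0.29 (adjusted p = 0.00279).

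Of the 11 measured genes of lipases, lipid droplets and the AKH receptor 2 were called higher and 0 lower, with a median of 0.10; Jabba is not on that list. The brummer lipase gene bmm, chosen after its values were seen, went from 281 to 1380.3 in control and from 201 to 1001 in knockout heads, with a difference of 0.02 ± 0.25. Fatty acid oxidation had 0 of 21 genes called, yet 18 lay above 0 and the median was 0.38, against -0.01 over all genes compared. Its largest differences, not called, were 0.82 ± 0.29 for the oxidase gene Acox57D-p and 0.71 ± 0.27 for the thiolase gene yip2. By the authors' deposited tables, 14 of these 21 genes rose in control and 16 in knockout heads. CROT, which encodes carnitine O-octanoyltransferase of peroxisomal fatty acid oxidation, is not on that list and was called higher. It went from 123 to 264 in control and from 125 to 642 in knockout heads, a difference of 1.15 ± 0.28 (adjusted p = 0.00731), and was chosen after its values were seen.

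On the lists of carbohydrate genes, those with a called difference were Gbs-70E and Pepck2. Gbs-70E encodes a subunit that targets protein phosphatase 1 to glycogen (chromosome 3L, 14540937 to 14550975). It went from 716 to 153 in control heads, where it fell, and had levels of 763 and 693 in knockout heads, a difference of 1.80 ± 0.28 (adjusted p = 1.67e-07). It was the only called gene of 12 for trehalose and glycogen, whose median was 0.44 with 9 above 0. sug, which encodes the sugar-responsive transcription factor sugarbabe, is not on these lists. It fell from 199 to 48.7 in control heads and stood at 132 and 133 in knockout heads, a difference of 1.63 ± 0.32 (adjusted p = 0.000171). Glycolysis had 0 of 15 genes called and a median of 0.22.

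The call of Pepck2, a gene of the gluconeogenic enzyme phosphoenolpyruvate carboxykinase, depended on the shrinkage of the deposited folds. Its level went from 8.19 to 125 in control and from 136 to 2833 in knockout heads, so it was higher in the knockout in both feeding states. The rise was 15.2-fold in control and 20.8-fold in knockout heads. The difference of the deposited folds was 1.27 ± 0.32 (adjusted p = 0.011), and with the prior taken out it was 0.45 ± 0.43 and not called (adjusted p = 1). DESeq2's prior draws a fold towards 0 by more where its standard error is larger. The cytochrome P450 gene Cyp4e3 kept its call with the prior taken out. It (chromosome 2L, 9747839 to 9750071, in BDGP6.54) went from 43.6 to 776 in control and from 64.1 to 11498 in knockout heads. Those are rises of 17.8-fold and 179-fold, with a difference of 3.14 ± 0.27 (adjusted p = 3.74e-27). It was the only called gene among 58 cytochrome P450 genes, whose median difference was 0.09.

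Signals by which the fat body reports nutrition were also on the higher side. CCHa2 encodes a nutrient-dependent peptide that acts on insulin-producing cells (chromosome 3R, 13389059 to 13395197). It fell from 587 to 199.6 in control heads and had levels of 1489 and 2570.1 in knockout heads, a difference of 2.03 ± 0.30 (adjusted p = 1.58e-08). Its level was thus higher in the knockout in both feeding states, and by more in fasted heads. fit, which encodes a satiety peptide of the fat body, fell in both genotypes, from 282 to 7.52 in control and from 136 to 36.0 in knockout heads. Its difference was 2.15 ± 0.38 (adjusted p = 1e-05), and 3.31 ± 0.54 with the prior taken out. In the annotation 12.6% of the exon bases of fit are shared with CG31465 on the opposite strand. All 8 measured genes of this list, which includes Ilp6, lay above 0, with 3 called higher, 0 lower and a median of 0.49.

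Bomanins are short secreted peptides made by the fat body under control of the Toll pathway. Of 11 measured Bomanin genes 6 were called higher and 0 lower, against 0.696% and 0.106% of all genes compared. All 11 lay above 0, and the median difference was 1.47. The 6 lie within chromosome 2R, 18382704 to 18389443, and reads of these similar neighbouring genes may have been shared between them. BomBc2 also shares 12.4% of its exon bases with BomS4 on the opposite strand, and the sources used here do not give whether reads were counted by strand. BomS1 went from 1405 to 785 in control and from 281 to 726 in knockout heads, a difference of 1.92 ± 0.29 (adjusted p = 2.32e-08). BomT2 went from 308 to 275 in control and from 83.3 to 474 in knockout heads, a difference of 2.10 ± 0.34 (adjusted p = 8.35e-07). BomS2, the most abundant of the 6 in fed control heads by level, went from 3779 to 2846 and from 539 to 2144, a difference of 1.77 ± 0.36 (adjusted p = 0.000274). The fed knockout level was the low one in each case, and fasting brought knockout heads towards or past the control level.

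BomBc2, BomS3 and BomBc1 had differences of 1.53 ± 0.32, 1.64 ± 0.28 and 1.47 ± 0.36 (adjusted p = 0.000515, 4.07e-06 and 0.00769). BomBc1 was called in neither fasting table, and its difference was 2.25 ± 0.58 with the prior taken out. By the authors' deposited table all 6 were lower in fed knockout than in fed control heads, and 1 of them, BomT2, was called in fasted heads, where it was higher. Summed over the 11 genes, the Bomanin level was 13583 in fed and 11407 in fasted control heads, and 3872 and 9048 in knockout heads. Dso2, a Toll-dependent antifungal peptide gene, had levels of 1184 and 469 in control and 421 and 396 in knockout heads, a difference of 1.04 ± 0.29 just inside the threshold (adjusted p = 0.0471). Its call was lost with no filter on low values.

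Of the other immune lists, that of antimicrobial peptides could be followed only in part. Of its 25 listed symbols 2, the drosomycin gene Drs and BaraA2, have no row under the identifiers that the reference gives them. Neither is in the counts of the list, and a row of either under another identifier could not be recognised. The 12 members that were compared had 0 called, 6 above and 6 below 0, and a median of -0.01. The peptidoglycan recognition proteins had 0 of 9 called and a median of -0.00. The largest difference of all genes compared belonged to FBgn0010381, an identifier without a symbol in the reference tables. Such identifiers could enter no list, so a member of a list may stand among them, and no count of a list covers them. They number 174 of the genes compared, with 2 called higher and 0 lower. FBgn0010381 had levels of 450.3 and 373 in control heads and went from 85.2 to 1966 in knockout heads, a rise of 23.1-fold and a difference of 4.06 ± 0.35 (adjusted p = 2.3e-27). Like the Bomanins it was lower in fed knockout heads in the authors' deposited table, and like BomT2 it was higher in fasted ones. lectin-28C, a C-type lectin gene, went from 212 to 149 and from 129 to 398, a difference of 1.75 ± 0.34 (adjusted p = 7.9e-05), but 31.8% of its annotated exon bases are shared with TwdlE on the opposite strand. GNBP-like3, of the family that binds bacterial and fungal walls, fell from 252 to 79.2 in control heads and stood at 139 and 159 in knockout heads, a difference of 1.57 ± 0.35 (adjusted p = 0.0022).

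**Figure D3:**
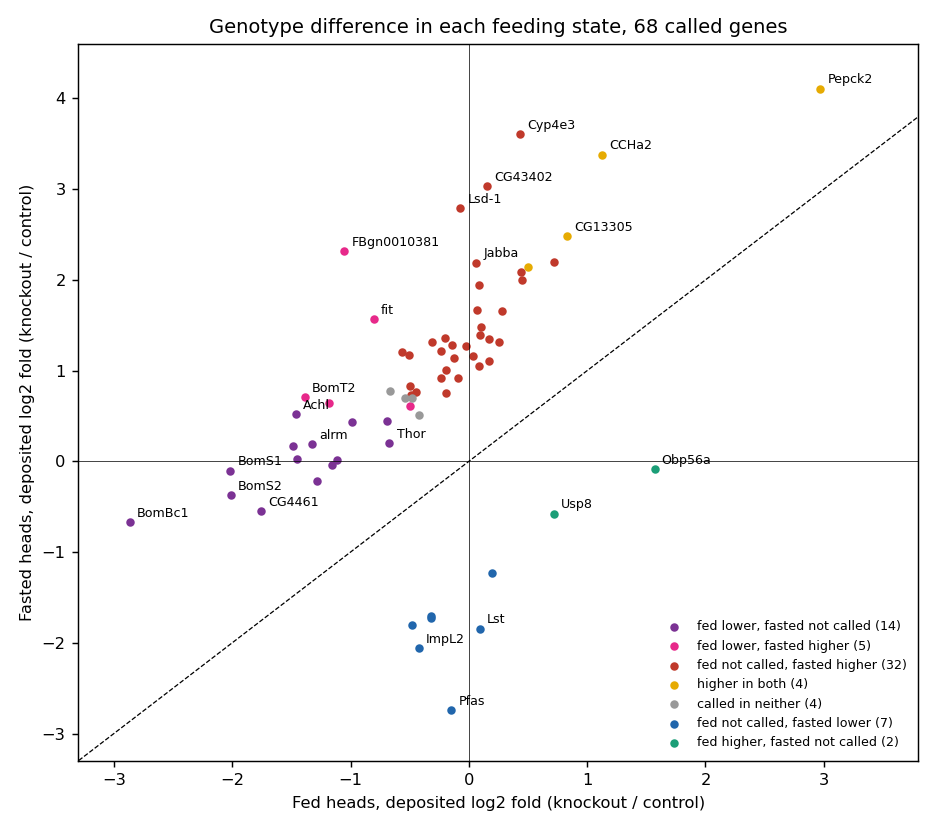
Knockout against control in fed heads (horizontal axis) and in fasted heads (vertical axis) for the 68 genes whose fasting response differed, as log2 folds of the authors' deposited tables, coloured by the deposited calls in each feeding state. The dashed line marks an equal genotype difference in both states. The largest class, 32 genes, was not called in fed and higher in fasted knockout heads, the 6 called Bomanin genes lie left of 0, and 7 genes led by Pfas were not called in fed and lower in fasted knockout heads.

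The comparison of knockout with control in each feeding state uses the same 10 libraries and shows in which state the levels of these genes parted. Of the 59 genes with a higher response, 32 were not called in fed heads and higher in fasted knockout heads in the authors' deposited tables, 14 were lower in fed and not called in fasted heads, 5 were lower in fed and higher in fasted heads, 4 were higher in both states and 4 were called in neither. The 14 include Thor, Achl, alrm and 5 Bomanin genes. Of the 9 with a lower response, 7 were not called in fed and lower in fasted knockout heads, and Obp56a and Usp8 were higher in fed and not called in fasted heads in the authors' deposited tables.

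Several of the largest differences belong to genes outside the lists. CG43402 went from 23.8 to 295 in knockout heads, a rise of 12.4-fold, and had levels of 19.2 and 22.3 in control heads, with a difference of 2.69 ± 0.39 (adjusted p = 7.38e-09). Its call rests on few reads in 3 of the 4 groups. Achl went from 217 to 1030.5 in knockout heads and stood at 659 and 693 in control heads, a difference of 1.95 ± 0.25 (adjusted p = 1.32e-11). CG34134 behaved alike, from 117 to 455 in knockout heads against 300.1 and 275 in control heads, a difference of 1.79 ± 0.28 (adjusted p = 2.07e-07). For both, the fed level was the lower one in the knockout. The ABC transporter gene Mdr49 went from 163 to 103 in control and from 229 to 524 in knockout heads, a difference of 1.65 ± 0.27 (adjusted p = 1e-06).

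In the authors' deposited tables CG5773, CG4000, CG13607 and CG7203 were called down by fasting in control heads only. Their differences were 1.67 ± 0.29, 1.57 ± 0.32, 1.49 ± 0.37 and 1.49 ± 0.35 (adjusted p = 3.31e-06, 0.0004, 0.00774 and 0.00458). In CG4000 21.0% of the exon bases are shared with asRNA:CR45024 on the opposite strand. CG5773 fell from 339 to 104 in control heads and had levels of 494 and 579 in knockout heads. CG13305 and the peroxiredoxin gene Prx6c were called up by fasting in knockout heads only in the authors' deposited tables, with log2 differences of 1.62 ± 0.35 and 1.50 ± 0.38 (adjusted p = 0.00118 and 0.0147). Prx6c lost its call with the prior taken out (adjusted p = 0.205). Its levels were low, at 19.8 and 25.7 in control and 40.7 and 186 in knockout heads. CG13305 had levels of 31.4 and 29.9 in control and 66.8 and 244 in knockout heads. It was higher in the knockout in both feeding states in the authors' deposited tables. The 19 called genes not named here by the naming rule all had a higher response, with differences from 0.92 to 1.39 and a median of 1.17.

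The lists of detoxification and stress genes gave single calls or none. Other called genes, such as Mdr49 and Prx6c given above, are on none of these lists. GstE3, a glutathione transferase gene, had levels of 155 and 132 in control heads and went from 127 to 342 in knockout heads, a difference of 1.44 ± 0.31 (adjusted p = 0.000988). It was the only called gene of 28 glutathione transferases, of which 22 lay above 0 with a median of 0.23. The UDP-glycosyltransferases had 0 of 16 called, 14 above 0 and a median of 0.35. Hsp68, a chaperone gene of the heat shock response, had levels of 129 and 129 in control heads and went from 109 to 286 in knockout heads, a difference of 1.22 ± 0.31 (adjusted p = 0.0136). It was the only called gene among the 14 measured genes of the heat shock list, 12 of them above 0, with a median of 0.27. Jheh1, a juvenile hormone epoxide hydrolase gene, rose in both genotypes, from 206 to 369.7 in control and from 219 to 820.4 in knockout heads, a difference of 0.98 ± 0.25 (adjusted p = 0.0141). All of its annotated exon bases are shared with FBgn0287616 on the opposite strand, which has no row in the tables. The odorant-binding protein gene Obp99b fell from 1206 to 462 in control heads and stood at 589 and 726 in knockout heads, a difference of 1.48 ± 0.33 (adjusted p = 0.00163), a call lost when the difference was taken from the tables of knockout against control.

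Marker lists of muscle, fat body and glia lay mostly above 0, those of neurons and photoreceptors mostly below, and few single markers were called. Of 17 measured muscle markers 1 was called higher and 0 lower, all 17 lay above 0, with a range of 0.13 to 0.95, and the median was 0.52. The called gene was Mlc2, a myosin light chain gene, which fell from 2806 to 1351 in control heads and stood at 2420.1 and 2389.5 in knockout heads, a difference of 0.95 ± 0.25 (adjusted p = 0.0168). The summed level of the 17 markers was 30465 in fed and 19805 in fasted control heads, and 32268 and 32388 in knockout heads. Fasted control heads were thus the low group. By the authors' deposited tables, 6 of the 17 fell in control heads and 0 in knockout heads. The muscle markers Act88F, fln and TpnC4 had base means under 10 in at least 1 table, and TpnC4 is listed at 0 in control heads.

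Fat body storage and lipoprotein genes had 0 of 7 measured members called, 5 above 0 and a median of 0.48. Their summed level went from 15683 to 6549 in control and from 16405 to 11919.6 in knockout heads. The lipophorin gene apolpp carried most of it, from 12865 to 4749 in control and from 11749.9 to 8758 in knockout heads, with a difference of 0.87 ± 0.31 that was not called (adjusted p = 0.337). Among the fat body markers left out for low base means, Fbp2 is listed at 0 in control heads. CCHa2, fit, Ilp6, Lsd-1, Gbs-70E, AkhR and the Bomanins are genes that fat body expresses, and the part of these marker values in their differences was not tested.

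Glial markers had 1 of 12 called higher and 0 lower, 11 above 0 and a median of 0.35. The called gene was alrm, an astrocyte marker, with levels of 257 and 243 in control and 91.6 and 284 in knockout heads, a difference of 1.47 ± 0.29 (adjusted p = 0.000162). The summed glial level was 11374 and 9265 in fed and fasted control heads, and 9296 and 10756 in knockout heads. Neuronal markers had 0 of 18 called, 15 below 0 and a median of -0.12. Phototransduction genes had 0 of 23 called, 20 below 0 and a median of -0.15. Hemocyte markers had 0 of 3 called, and 2 others had a base mean under 10 in a table. The sex-biased markers had 0 of 5 called, with Yp1 and Yp2 at base means under 10.

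The compared genes of the neuropeptide list lay mostly below 0, with 22 of 24 there, a median of -0.29, and 1 called. That list does not hold the peptide genes CCHa2, fit and Ilp6, called higher, or Lst, called lower, which are described above. Nplp2, also listed, has no row under the identifier that the reference gives it and is not in these counts. A row of Nplp2 under another identifier, such as one without a symbol, could not be recognised. The called gene of the list was Nplp3, a neuropeptide-like precursor, with a higher response. It fell from 1650.0 to 560.1 in control heads and stood at 2462 and 2528 in knockout heads, a difference of 1.42 ± 0.32 (adjusted p = 0.00187). Of the clock genes 0 of 11 were called, and per, with the largest difference among them, had levels of 521 and 701 in control and 666 and 404 in knockout heads (difference -0.98 ± 0.30, adjusted p = 0.0982). The Crtc, CREB and cAMP pathway list had 0 of 13 called, between -0.14 and 0.24.

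**Figure D4:**
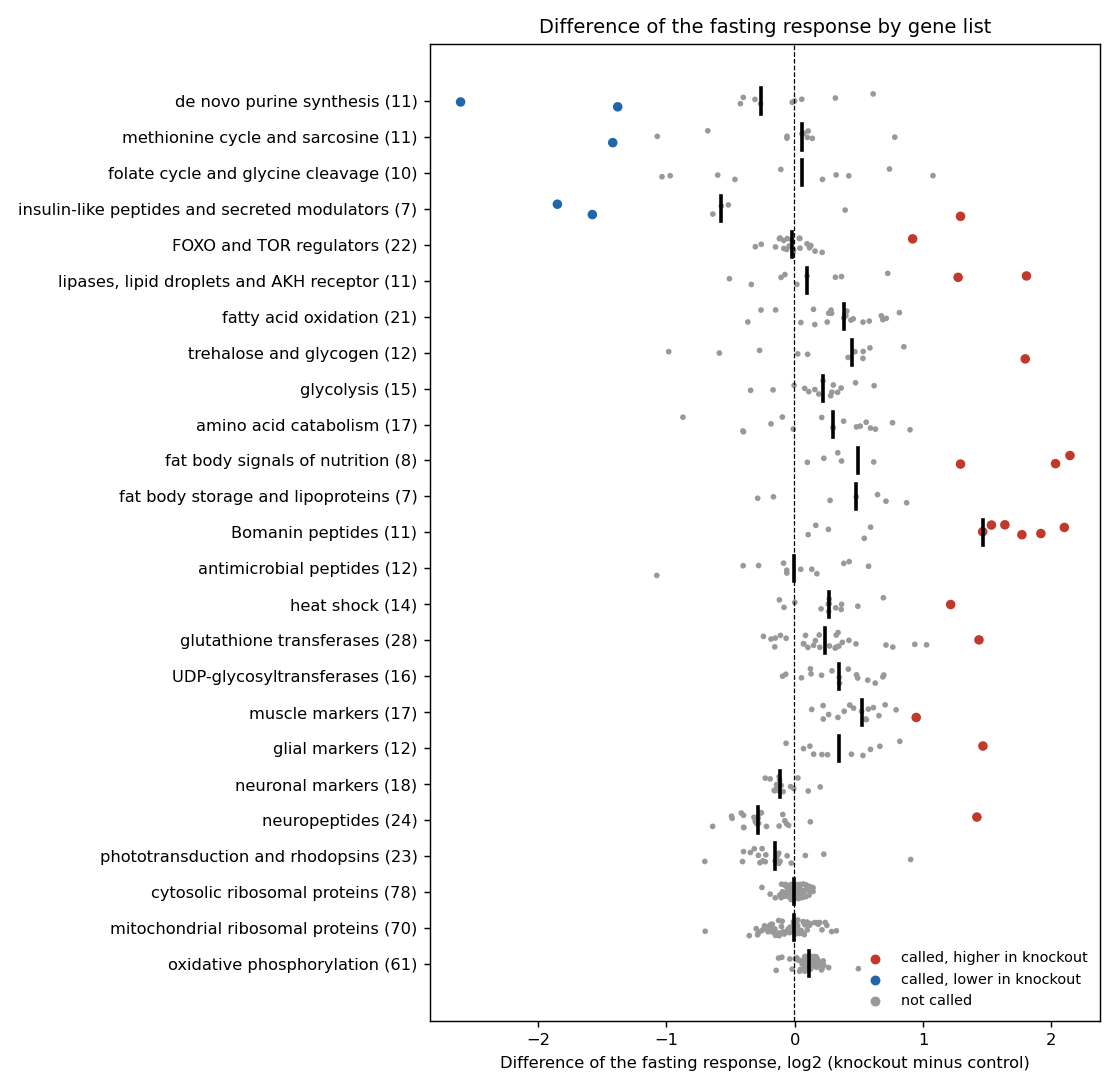
Difference of the fasting response (log2, knockout minus control) of each measured gene in 25 gene lists, with the number of genes in brackets. Red and blue points are called genes, grey points are not called, black bars are list medians and the dashed line is the median of all 8474 genes. The Bomanin and muscle lists lie wholly to the right of the dashed line, while the ribosomal lists are centred on it.

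The large housekeeping lists had no called gene. Cytosolic ribosomal proteins had 0 of 78 called, with differences from -0.26 to 0.14 and a median of -0.01. Mitochondrial ribosomal proteins had 0 of 70 called and a median of -0.01, and aminoacyl-tRNA synthetases 0 of 30 and -0.01. Oxidative phosphorylation had 0 of 61 called, 56 above 0 and a median of 0.11, and the proteasome 0 of 32, 27 above 0 and 0.13. The V-ATPase and autophagy list had 0 of 35 called and a median of 0.03, and long noncoding RNAs 0 of 92 and -0.15. Amino acid catabolism had 0 of 17 called and a median of 0.30, with Hpd, which encodes an enzyme of tyrosine breakdown, at 0.90 ± 0.30 (adjusted p = 0.231) and the aspartate aminotransferase gene Got2 at -0.87 ± 0.28 (adjusted p = 0.176).

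Of the remaining lists, the amino acid transporters had 0 of 10 genes called and a median of 0.19, the regulators of ATF4 and unfolded protein stress 0 of 10 and 0.13, the eye pigment genes 0 of 11 and -0.05, and the cuticle proteins 0 of 16 and 0.25. Gluconeogenesis had 1 of 4 called higher (Pepck2, median 0.08) and juvenile hormone and ecdysone 1 of 14 (Jheh1, median 0.15). The wunen-like phosphatases had 1 of 7 called lower (CG11425, median 0.04), the Turandot peptides 1 of 3 (TotC, median 0.01), and the odorant-binding proteins 1 higher and 1 lower of 18 (Obp99b and Obp56a, median 0.29).

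Amylases and maltases had 0 of 4 measured genes called. Amy-p was just outside the threshold on the lower side, with levels of 276 and 1624 in control and 65.6 and 175 in knockout heads and a difference of -1.26 ± 0.36 (adjusted p = 0.0604). Reads of the near-identical amylase copies may have been shared between them. Desat1, a fatty acid desaturase gene, was also just outside, with levels of 9627 and 15820.2 in control and 6804 and 5401 in knockout heads and a difference of -0.93 ± 0.27 (adjusted p = 0.0551). CG10345 was just outside at 0.97 ± 0.28 (adjusted p = 0.0584). Just inside, next to Dso2, stood CG4461 at 1.16 ± 0.32 (adjusted p = 0.045) and CG6426 at 1.18 ± 0.33 (adjusted p = 0.0495), whose calls were lost both with no filter and with the prior taken out.

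Among the large chromosome arms the X held the fewest called genes. Arm 2R held 19 of the higher, among them the 6 neighbouring Bomanin genes, and 3 of the lower genes among 1687 compared, 3R held 17 and 3 among 2058, 2L held 10 and 1 among 1482, and 3L held 9 and 2 among 1588. The X chromosome held 2 and 0 among 1403, and chromosome 4 held 0 and 0 among 82. Another 2 called genes, FBgn0010381 and FBgn0040813, are among the 174 identifiers without a place in the annotation. FBgn0040813, chosen after its values were seen, went from 6505 to 2053 in control and from 4335 to 3571 in knockout heads, a difference of 1.30 ± 0.29 (adjusted p = 0.00203). Every called gene with a biotype in the annotation is protein-coding, 57 of the higher and 9 of the lower.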

How the data were processed

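Per the labels' protocols, libraries of polyadenylated head RNA were made with a NEBNext Ultra kit. DESeq2, Cuffdiff, STAR and TopHat2 and the builds dm3 and dm6 are named, without versions or roles, in the submitters' processing notes. The aligner, build and strand setting of these tables are not given in the sources used here. Per the file headers, each of the authors' 4 tables holds a base mean (a signal of normalized counts averaged over its libraries), a log2 fold with its standard error, a Wald score and p-values, raw and adjusted. The authors deposited no values per library in these tables. The deposited standard errors have a ceiling (0.285 in control fasting, 0.315 in knockout fasting), the form that a normal prior on the log2 folds gives, so the folds are shrunken towards 0.

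Library numbers in the tables' names differ from those in the labels, which fits a numbering that skips the 4 CREB mutant head samples. The recovered levels were checked against the base means of the other 2 tables with 3 fed and 2 fasted libraries a genotype. The other 11 samples (CREB and Sik2 mutant heads, and bodies) are not analysed here.

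The difference test is described in the report. To take the prior out, its width was set to 2 times the ceiling of the standard errors, and fold and error were solved for each gene. Group levels follow from base mean and that fold, weighted by 3 fed and 2 fasted libraries. Scripts used pandas 2.3.3, numpy 2.4.6 and scipy 1.17.1 and were tested on simulated data. Symbols matched 17253 of 17559 identifiers, and 12 of the 480 symbols listed by name have no row under the reference's identifier. The tables hold no coordinates, so positions and overlaps are those of BDGP6.54 as annotated in Ensembl release 115.

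The members and the 47 gene lists were chosen with earlier results of these data known. Named genes are every gene with a lower response, the 25 largest higher responses, every called gene of a list, the 2 largest differences of each list (given here for the lists discussed in the text), genes called in opposite directions by the authors, and 3 genes on either side of the threshold. Alternatives changed the filter, the tables, the prior, the reference distribution, the centring and the threshold.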

Additional observations from a re-analysis of the deposited data

Results flagged for a closer look

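Each of the 49 genes listed here was called by the normal test of the difference itself and is taken in by the naming rule. None was called with a t reference on 6 degrees of freedom. With the prior taken out, 7 of them lost the call: Obp56a, Sardh, CG11425, CG4461, CG6426, Pepck2 and Prx6c. Values are log2 differences, knockout minus control. Errors and adjusted p-values stand in the report, as do the levels of most of these genes, and no explanation was tested.

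Lower responses in knockout heads were -2.60 for Pfas, -1.38 for Adsl and -1.42 for Sardh among enzymes, and -1.85 for Lst and -1.58 for ImpL2 among secreted modulators of insulin. The other lower responses were -1.50 for Obp56a, -1.34 for TotC, -1.27 for Usp8 and -1.27 for CG11425. Higher responses among genes of fat, sugar and nutrient signals were 1.81 for Lsd-1, 1.91 for Jabba, 1.27 for AkhR, 1.80 for Gbs-70E, 1.27 for Pepck2, 1.63 for sug, 2.03 for CCHa2, 2.15 for fit, 1.29 for Ilp6 and 0.92 for Thor. The immune genes were at 2.10 for BomT2, 1.92 for BomS1, 1.77 for BomS2, 1.64 for BomS3, 1.53 for BomBc2, 1.47 for BomBc1, 1.04 for Dso2, 1.75 for lectin-28C and 1.57 for GNBP-like3. Enzymes, transporters, chaperones and binding proteins were at 3.14 for Cyp4e3, 1.44 for GstE3, 0.98 for Jheh1, 1.65 for Mdr49, 1.50 for Prx6c, 1.22 for Hsp68 and 1.48 for Obp99b. Markers of head tissues and peptides were at 0.95 for Mlc2, 1.47 for alrm and 1.42 for Nplp3. The remaining genes were at 4.06 for FBgn0010381, 2.69 for CG43402, 1.95 for Achl, 1.79 for CG34134, 1.67 for CG5773, 1.62 for CG13305, 1.57 for CG4000, 1.49 for CG7203, 1.49 for CG13607, 1.18 for CG6426 and 1.16 for CG4461.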

How the results depend on the processing

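The count of genes with a higher response was 59 as reported, 59 with no filter on low values, 58 at a base mean of at least 50, 66 from the 2 tables of knockout against control, 56 with the prior taken out, 59 after centring and 44 at an adjusted p under 0.01. The count with a lower response was 9 as reported, 9 with no filter, 9 at a base mean of at least 50, 10 from the tables of knockout against control, 9 after centring, 6 with the prior taken out and 6 at an adjusted p under 0.01. With a threshold of 0.1 the counts were 74 and 12. Keeping only genes with a deposited adjusted p left the same 8474 genes. With a t reference on 6 degrees of freedom both counts were 0, with 190 genes at an unadjusted p under 0.05 and a smallest adjusted p of 0.108, against 349 at an unadjusted p under 0.05 with the normal reference.

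Of the 68 called genes, 7 were not called with no filter, 2 (DNaseII and Obp99b) from the tables of knockout against control, and 8 with the prior taken out (Obp56a, Sardh, CG11425, CG4461, CG6426, DNaseII, Pepck2 and Prx6c), and the cause was not tested for single genes. At a base mean of at least 50, 5 had no value and the other 63 were called. Cyp4g1, not called, reversed: its difference was 1.33 as reported and -0.24 from the tables of knockout against control, and the cause was not tested.

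No paired analysis was possible because the tables hold no values per library. For the same reason no replicate was left out and the third fed libraries were not set apart. Depth per library is unknown, and the precision of a gene is that of its standard error. Those errors ran from 0.148 to 0.425 with a median of 0.318.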
